A study of Mus musculus with 4 samples.

Results

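The Six-, Eya- and Sall-family genes encode nuclear regulators that work together in the mesenchyme from which nephrons form. They were represented here by 9 genes, Six2, Six4, Six5, Eya1, Eya2, Eya3, Eya4, Sall1 and Sall4, and by the 22 probe sets, of 45101 on the array, that the platform annotation gave to one of these genes alone. A probe set is a group of short array probes that reads the RNA of a gene, often at a single place in it. Each gene was described at every one of its probe sets, because probe sets of a gene did not always read alike.

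Whole kidneys were excised from mouse embryos at stage E14.5 (Theiler stage 22), and their amplified RNA was hybridised to Affymetrix Mouse430_2 arrays. The mutant group was 2 arrays of kidneys null for Wnt4 through the allele Wnt4tm1Amc, each a pool of 12 kidneys from animals labelled as strain 129. The wild-type group was 2 arrays, each a pool of 2 kidneys from animals labelled CD-1, although the protocol text for all arrays describes CD-1 matings. Sex was given as unknown, and genotype, stated strain and pool size divided the arrays in the same way, so they cannot be told apart. The mutant kidneys keep ureteric bud, stroma and mesenchyme but, by the study's design, lack renal vesicles and what forms from them. The comparison was made to find genes of those structures. The labels call the pools biological replicates and say nothing of litters, so the p-values below measure only the spread between these pools, which may be partly technical.

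Six-family proteins bind DNA through a homeodomain. Eya proteins do not bind DNA; they join Six-family proteins as coactivators and also act as phosphatases. Sall proteins are zinc finger factors that recruit the NuRD chromatin remodelling and deacetylase complex. In the embryonic kidney, Eya1 and Sall1 are needed in the mouse for the organ to form, and Six2 keeps nephron progenitors from differentiating too early. Members of the Six-family and of the Eya family are also active in skeletal muscle precursors, where Six-family proteins bind a site known as MEF3.

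The promoters of Six2, Six4 and Six5 are shown because these paralogues differed in their readings and because 1 of them holds the letters of a MEF3 site. Sequences are from RefSeq, build GRCm38.p6, and run from 250 bases before to 50 bases after an annotated transcript start, 5′ to 3′ on the gene's strand. Capitals mark a match to TCAGGTTTC, the MEF3 site, on either strand. The windows, for Six4 the first of 2, are chr17:85688205-85688504 on the minus strand for Six2, chr12:73113196-73113495 on the minus strand for Six4 and chr7:19094294-19094593 on the plus strand for Six5.
Six2: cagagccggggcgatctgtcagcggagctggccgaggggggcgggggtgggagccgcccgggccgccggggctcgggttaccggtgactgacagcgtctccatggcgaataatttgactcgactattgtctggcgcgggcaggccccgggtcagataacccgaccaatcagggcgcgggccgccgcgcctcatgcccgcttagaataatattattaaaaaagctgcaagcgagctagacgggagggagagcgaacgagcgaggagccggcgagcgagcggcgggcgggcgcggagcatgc
Six4: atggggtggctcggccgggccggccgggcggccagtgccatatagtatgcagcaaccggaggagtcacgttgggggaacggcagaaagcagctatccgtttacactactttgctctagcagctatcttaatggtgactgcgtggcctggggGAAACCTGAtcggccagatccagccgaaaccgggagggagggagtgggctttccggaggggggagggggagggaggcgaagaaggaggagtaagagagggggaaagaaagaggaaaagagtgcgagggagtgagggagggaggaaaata
Six5: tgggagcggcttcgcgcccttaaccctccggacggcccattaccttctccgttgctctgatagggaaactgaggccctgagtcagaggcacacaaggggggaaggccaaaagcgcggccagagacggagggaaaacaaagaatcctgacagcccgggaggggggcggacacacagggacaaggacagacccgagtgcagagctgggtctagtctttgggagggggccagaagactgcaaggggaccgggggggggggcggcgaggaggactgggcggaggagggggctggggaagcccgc

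The promoter table held 10 windows for 6 of the genes (Six2, Six4, Six5, Eya3, Eya4 and Sall1). The MEF3 match was in 1 of them, that of Six4, with its first base 99 bases before the start and the site reading GAAACCTGA on the gene's strand. Six4 had a second window, chr12:73113376-73113675, for another annotated start, and it held no match. Over all 32851 windows of that length, 0.429% held this motif on either strand. Matches to CTTTGAT, a form of the site of TCF/LEF factors, which act downstream of Wnt signals, were in 0 of the 10 windows, against 3.73% of all windows, and matches to CAGCTG, an E-box of myogenic factors, in 0 of 10, against 16.3%. No match of 1 motif overlapped another in these windows. The Six4 windows overlap each other in sequence, as do those of Eya4, so the 10 are not separate stretches. The motifs were chosen after the sequences had been seen. A match is a description of letters and not a bound site.

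The deposited signals were already on a common scale: with 2% of values trimmed at each end, the mean of every array was 499.9. The median signals still differed, at 138 and 159 on the mutant arrays and 151 and 149 on the wild-type arrays. Wnt4 itself was read first, as the check of the labels. At its brighter probe set the signal was 406 and 272 on the mutant arrays, against 1885 and 1769.9 on the wild-type arrays, a log2 difference of -2.40 ± 0.18 (SE) with a limma adjusted p of 0.000196. All 9 of the kidney markers on the array, among them Wt1, Gdnf, Ret, Wnt11 and Gata3, were above the level at which probe sets were tested, a mean signal of about 94.2 over the arrays. The 3′ to 5′ ratio of the transferrin receptor control, a measure that rises as RNA is read less completely towards its 5′ end, was 5.67 and 6.43 on the mutant arrays and 4.71 and 5.10 on the wild-type arrays. The same ratio of the Gapdh control was 0.753 and 0.744 on the mutant arrays and 0.777 and 0.750 on the wild-type arrays, and that of the Actb control was 1.56 and 1.54 on the mutant arrays and 1.59 and 1.43 on the wild-type arrays. The groups stood apart in the transferrin receptor ratio and overlapped in the other two.

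Of the 22 probe sets, 15 passed the filter on low values and were tested, and they covered 7 genes; the single probe set of Eya2, both of Sall4 and 1 each of Six4, Eya1, Eya3 and Eya4 did not pass. Among the tested genes, Six5 and Eya4 were higher in the mutant and Sall1 was lower, each at 1 probe set. The tested probe sets numbered 2 higher and 1 lower in the mutant past an adjusted p of 0.05, while the other 12 did not pass. Over all 27022 probe sets tested, 10.8% were called (5.41% higher and 5.39% lower), and 3 of 15 is 20.0%. The groups did not overlap in 9 of the 15, against 54.1% of all tested probe sets, and in 13 of the 22, against 46.9% of all 45037 probe sets that are not controls. The median log2 difference of the 15 was -0.003, and that of all tested probe sets was -0.0109. In whole kidneys a lower signal can come from fewer cells of a type or from less RNA per cell, and these cannot be told apart.

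**Figure D1:**
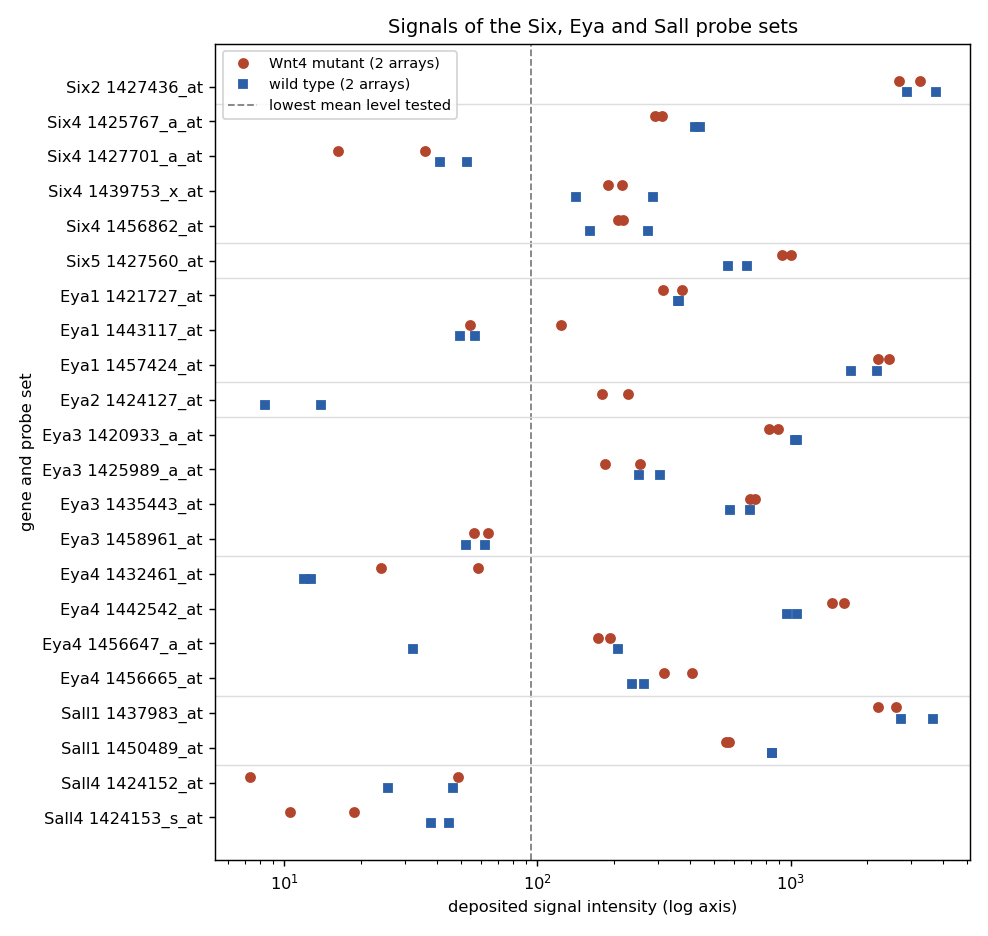
Deposited signal intensity (log axis) of each of the 22 probe sets on the 2 Wnt4 mutant arrays (circles) and the 2 wild-type arrays (squares), with the dashed line at the lowest mean level tested, 94.2. The Eya2 probe set has both mutant arrays right of the line and both wild-type arrays far left of it, and Six2 has overlapping groups.

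Six2 is the homeodomain factor that marks the self-renewing progenitors of the cap mesenchyme. Its only probe set, 1427436_at, read 3235 and 2670.2 on the mutant arrays, against 3759.5 and 2896 on the wild-type arrays. The first mutant array lay between the wild-type arrays, so the groups overlapped. The log2 difference was -0.17 ± 0.14 (SE), with a 95% interval of -0.49 to 0.16 and a limma adjusted p of 0.524. The interval spans 0 and reaches -0.49. The sign turned without wild-type replicate 1, where the difference was 0.02.

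Six4, a paralogue of Six2 known for its part in muscle development, was read at 4 probe sets. At 1425767_a_at, the brightest, it had 290.1 and 311 on the mutant arrays, against 420.4 and 439.7 on the wild-type arrays. Both mutant arrays were below both wild-type arrays, with a log2 difference of -0.49 ± 0.16 (SE), but the limma adjusted p of 0.0971 did not pass. At 1439753_x_at the signals were 217 and 189.5 in the mutant and 142 and 287 in wild type, and at 1456862_at they were 218 and 207 in the mutant and 161 and 274 in wild type. Here the wild-type arrays lay on either side of the mutant ones, and the log2 differences were -0.003 and 0.01. These 2 probe sets were designed from the same source sequence and are not independent readings. The fourth, 1427701_a_at, read 16.2 and 36.1 in the mutant and 52.9 and 41.0 in wild type, all under the level tested.

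Six5, a homeodomain factor whose gene lies beside the myotonic dystrophy kinase gene in human, was higher in the mutant. Its probe set, 1427560_at, read 1006 and 926 on the mutant arrays, against 673 and 567 on the wild-type arrays. Both mutant arrays stood above both wild-type arrays. The log2 difference was 0.63 ± 0.13 (SE), a 1.55-fold higher level with a 95% interval of 0.33 to 0.94 in log2 (limma adjusted p = 0.0214). The call was lost without mutant replicate 1 (adjusted p = 0.124), without mutant replicate 2 (0.0651) and without the intensity trend (0.106). When 1 mutant array is left out, the spread comes from the wild-type arrays alone.

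Eya1, the coactivator without which the mouse kidney does not form, did not pass at either tested probe set. At 1457424_at it read 2438 and 2208 on the mutant arrays, against 1725 and 2187 on the wild-type arrays. The lower mutant array exceeded the higher wild-type array by a small margin, and the log2 difference was 0.25 ± 0.13 (SE, limma adjusted p = 0.251, 95% interval -0.03 to 0.54). Without wild-type replicate 2 this probe set passed, with a difference of 0.42 and an adjusted p of 0.0183, and without wild-type replicate 1 the difference was 0.0849 (0.707). At 1421727_at the signals were 313 and 372 in the mutant and 360.0 and 362 in wild type, with overlapping groups. The third probe set, 1443117_at, was not tested and read 54.3 and 124 in the mutant and 56.7 and 49.4 in wild type.

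Eya2, a coactivator known from muscle precursors and sensory placodes, showed the widest separation of all 22 probe sets. Its probe set, 1424127_at, read 181 and 229 on the mutant arrays, against 14.0 and 8.40 on the wild-type arrays. The mean was 205 ± 34.0 (SD, n = 2) in the mutant, and 11.2 ± 3.94 (n = 2) in wild type, close to the lowest values on the arrays. The low wild-type values put its mean of log2(signal + 16) over the 4 arrays under the filter, so Eya2 had no test in the chosen fit. In the fit with no filter, in which 4.42% of 45037 probe sets were called (2.23% higher and 2.19% lower in the mutant), its log2 difference was 3.02 ± 0.39 (SE) with a limma adjusted p of 0.0100. With a pseudocount of 1 in place of 16 the difference was 4.11, and with 64 it was 1.83, so its size depends on that choice. The call in the fit with no filter was lost without mutant replicate 1 (adjusted p = 0.0854), without mutant replicate 2 (0.108) and without the intensity trend (0.0745).

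Eya3, a broadly expressed coactivator, was read at 4 probe sets that pointed in different directions. At 1420933_a_at the signals were 823 and 895 on the mutant arrays, against 1039.6 and 1062 on the wild-type arrays. The groups did not overlap, the log2 difference was -0.29 ± 0.11 (SE), and the limma adjusted p was 0.15. At 1435443_at they were 726 and 693 in the mutant and 689 and 578 in wild type, with the mutant arrays slightly above and a difference of 0.16 (adjusted p = 0.516). At 1425989_a_at the groups overlapped, with 185 and 255 in the mutant and 304 and 251 in wild type (difference -0.32, adjusted p = 0.443). The untested 1458961_at ranged from 52.0 to 63.8 over the 4 arrays. No Eya3 probe set passed, and the opposite signs at 1420933_a_at and 1435443_at leave the gene without a common direction.

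Eya4, whose human gene is linked to hearing loss and heart muscle disease, was higher in the mutant. At 1442542_at it read 1464 and 1626 on the mutant arrays, against 1057 and 971 on the wild-type arrays. Both mutant arrays lay well above both wild-type arrays. The log2 difference was 0.60 ± 0.11 (SE), a 1.52-fold higher level with a 95% interval of 0.35 to 0.85 in log2 (limma adjusted p = 0.0116). At 1456665_at the signals were 316 and 406 in the mutant and 263 and 237 in wild type, again with no overlap, but the difference of 0.49 did not pass (adjusted p = 0.164).

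A further Eya4 probe set, 1456647_a_at, read 194 and 174 on the mutant arrays and 208 and 32.15 on the wild-type arrays. The wild-type arrays disagreed with each other here, and the log2 difference turned from 0.94 to -0.17 without wild-type replicate 2 (limma adjusted p = 0.792). Without wild-type replicate 1 it was 2.05 and passed (0.00412). At 1432461_at, not tested, the signals were 57.9 and 24.0 in the mutant and 12.0 and 12.7 in wild type. The mutant arrays were thus above the wild-type arrays at 3 of the 4 Eya4 probe sets, among them 1432461_at, with every signal under the level tested. Over all 45037 probe sets that are not controls, the groups did not overlap, in either direction, in 46.9%. The call at 1442542_at was lost without mutant replicate 2 (limma adjusted p = 0.0966) and without the intensity trend (0.0974), and the mean over the 3 tested probe sets gave a difference of 0.68 that did not pass (0.123).

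Sall1, the zinc finger factor of the metanephric mesenchyme, whose human gene is mutated in Townes-Brocks syndrome, was lower in the mutant at 1 of its 2 probe sets. At 1450489_at it read 574 and 554 on the mutant arrays, against 842 and 845 on the wild-type arrays. The arrays of each genotype lay close together, and the groups were clearly apart. The log2 difference was -0.57 ± 0.12 (SE), a 1.48-fold lower level in the mutant with a 95% interval of -0.85 to -0.29 (limma adjusted p = 0.0223). At 1437983_at the signals were 2208 and 2602 in the mutant and 2726 and 3659.7 in wild type. They pointed the same way without overlap, but the difference of -0.40 ± 0.15 (SE) did not pass (adjusted p = 0.130). It passed without wild-type replicate 1, at -0.61 (adjusted p = 0.00173), and was -0.18 without wild-type replicate 2 (0.332). The mean over both probe sets passed, with a difference of -0.48 and an adjusted p of 0.0223. The call at 1450489_at was lost without mutant replicate 1 (adjusted p = 0.0885), without mutant replicate 2 (0.119), without the intensity trend (0.0857) and after centring each array on its median (0.0547).

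Sall4, a factor of pluripotent and germ cells, was near the bottom of the scale on every array. Its probe set 1424152_at read 48.6 and 7.29 on the mutant arrays and 46.5 and 25.7 on the wild-type arrays, with overlap. At 1424153_s_at the signals were 10.55 and 18.75 in the mutant and 37.8 and 44.5 in wild type. The mutant arrays were lower there, but the limma adjusted p in the fit with no filter was 0.202. Both probe sets were designed from the same source sequence. The germ cell markers were also low: of 5 on the array, 4 had every signal of both groups under the level tested.

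**Figure D2:**
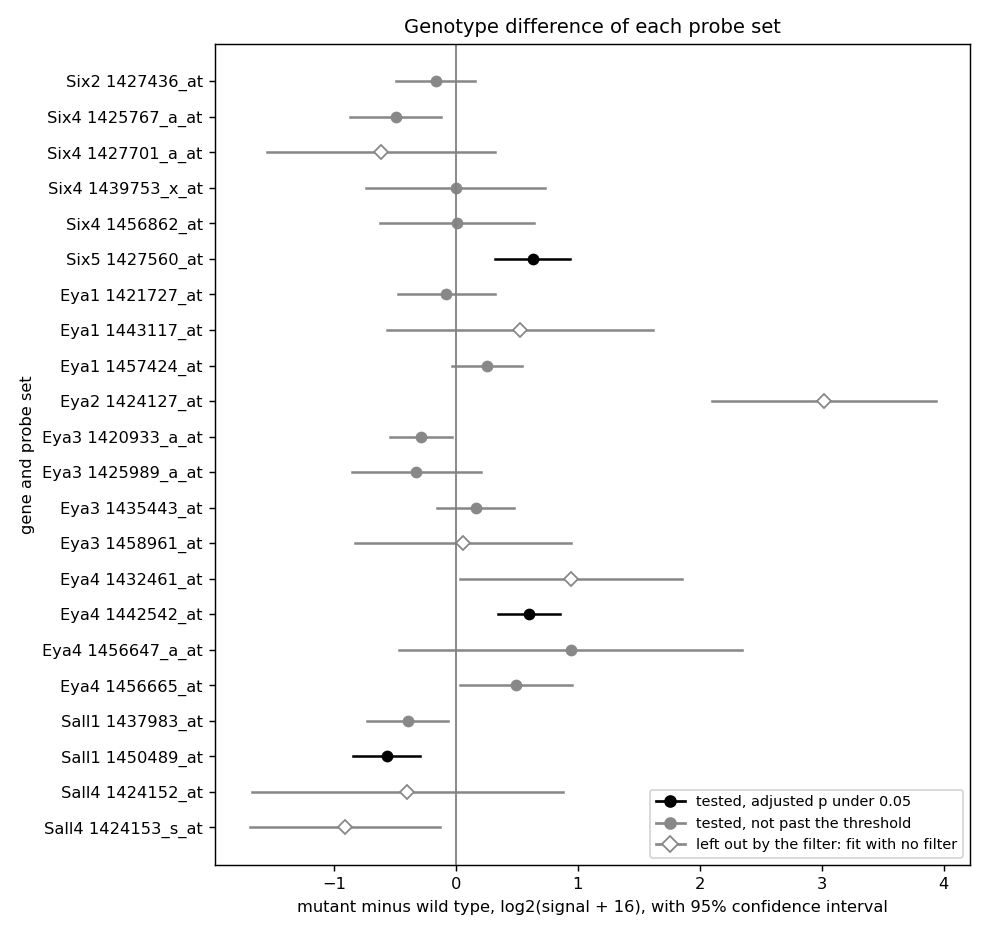
Mutant minus wild-type difference of log2(signal + 16) with its 95% confidence interval for each of the 22 probe sets. Black circles are the 3 tested probe sets past an adjusted p of 0.05, grey circles the 12 tested that did not pass, and diamonds the 7 left out by the filter, with values from the fit with no filter. Eya2, at 3.02, lies far to the right of the others.

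Markers of other cell types moved on the same arrays. With 1 probe set a gene, 6.70% of 13432 genes were called higher in the mutant and 5.82% lower. Of 13 tested skeletal muscle genes, 9 were higher in the mutant and 0 lower, with a median log2 difference of 1.59. That count and median leave out 6 of the 19 on the array, and 3 of the 13 (Myog, Myl1 and Tnnc2) had a wild-type mean under the level tested, so that they passed the filter through the mutant arrays. Over all 19, the mutant mean was higher for 14 genes and lower for 5 (Myf5, Pax7, Tnnt3, Chrnd and Des), and the summed signal was 10140.3 to 10375 on the mutant arrays and 2482 to 3649.5 on the wild-type arrays. None was at 0. Actc1 had the largest signal of the list on every array and so weighs most in these sums. It read 4263 and 3890 in the mutant and 715 and 578 in wild type. Both mutant signals were under the level tested for 5 of the 19, and both wild-type signals for 4. Myf5, a determination factor of muscle, read 6.57 and 2.18 in the mutant and 19.4 and 25.7 in wild type. Of 10 cortical stroma genes, 6 were higher and 0 lower, with sums of 66404 to 66649 in the mutant and 44419 to 48069 in wild type. Of those 6, Ntn1 was called higher at 1 of its 2 tested probe sets and Meis1 at 2 of 3, the others at all of theirs. These 2 lists stood in the same direction as Six5, Eya2 and Eya4, and their part in those differences was not tested.

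Renal vesicle genes were lower on the same arrays as Sall1. The 10 that were tested all passed and were lower in the mutant; their median log2 difference was -1.68. Jag1 was called lower at 1 of its 3 tested probe sets and Pou3f3 at 1 of 2, the other tested genes at all of theirs. Over the 11 genes on the array, Wnt4 among them, the sums were 9198 to 9635 in the mutant and 21999 to 22796 in wild type. Their part in the Sall1 difference was not tested. Of 4 tested sympathetic and neural crest genes, 0 passed in limma; 1 of them, Stmn2, named after its value was seen, had an unadjusted p of 0.0302. The sums over the 7 on the array were 1091 to 1181 in the mutant and 797 to 1109.7 in wild type. The 5 germ cell genes summed to 272 to 273 in the mutant and 208 to 296 in wild type, and the 1 tested, Dppa3, did not pass.

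Genes that act beside these proteins went both ways. With 1 probe set a gene, 12.5% of 13432 genes were called (6.70% higher and 5.82% lower in the mutant), around a median log2 difference of 3e-04. Among 13 tested genes of the progenitor network, 3 were lower (Uncx, Cited1 and Itga8), 2 higher (Osr1 and Crym) and 8 not past the threshold, with a median of 0.12. Uncx, a homeobox gene, read 1358 and 1124 on the mutant arrays, against 3405 and 3012 on the wild-type arrays (limma adjusted p = 0.000376). Osr1, a zinc finger gene upstream of the progenitor state, read 713 and 759.5 in the mutant and 444 and 379.6 in wild type (adjusted p = 0.0102, and 0.0637 without mutant replicate 2). Crym was named after its value was seen; its call was lost without mutant replicate 1 (0.112) or mutant replicate 2 (0.0587), and that of Itga8 without mutant replicate 1 (0.201).

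Of the 8 tested cofactors that bind Eya or Six-family proteins, 1 was lower and 1 higher, where 12.5% of all genes were called. The median log2 difference was 0.13. Dach1, a corepressor that joins Eya and Six-family proteins, read 869 and 789.6 on the mutant arrays, against 1107 and 1573 on the wild-type arrays. It was 1.58-fold lower in the mutant (limma adjusted p = 0.0398), and the call was lost without mutant replicate 1 (0.0600), mutant replicate 2 (0.136) or wild-type replicate 2 (0.0609). These values are from its brightest probe set, and Dach1 was called lower at 2 of its 3 tested probe sets. Tle2, a Groucho corepressor, read 544 and 551 in the mutant and 348 and 370.0 in wild type, a log2 difference of 0.59 (adjusted p = 0.0405). Its call was lost without mutant replicate 1 (0.170), mutant replicate 2 (0.178) or wild-type replicate 1 (0.0628). The paralogues Dach2 and Tle3 had differences of 0.65 and 0.30 and did not pass (adjusted p = 0.0864 and 0.101).

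Of the 13 tested subunits of the NuRD complex, 1 was higher and 1 lower, with a median log2 difference of 0.12. The share called over all genes was 12.5%. Chd3, a helicase subunit, read 3649 and 3281 on the mutant arrays, against 2318 and 1844 on the wild-type arrays. It was 1.67-fold higher in the mutant (limma adjusted p = 0.00774). Mbd2, a methyl-CpG binding subunit, read 991 and 1004 in the mutant and 1277 and 1379 in wild type, a 1.33-fold lower level (adjusted p = 0.0442). The Mbd2 call was lost without mutant replicate 1 (0.207), mutant replicate 2 (0.181) or wild-type replicate 2 (0.0783). The deacetylase gene Hdac2 and the scaffold gene Gatad2a had differences of 0.14 and -0.18 that did not pass. Over the 3 lists, 8 of the 9 called genes, all but Uncx, did not pass without the intensity trend.

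**Figure D3:**
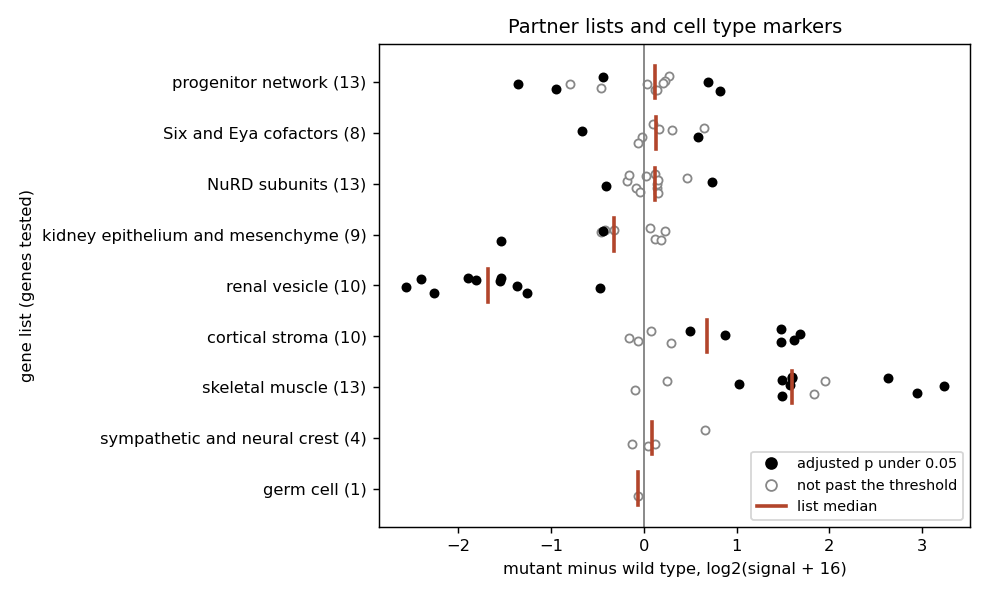
Mutant minus wild-type difference of log2(signal + 16) for the tested genes of each list, 1 probe set a gene, with black points past an adjusted p of 0.05, open points not past it and a bar at the list median. The progenitor network, cofactor and NuRD lists have medians of 0.12, 0.13 and 0.12. The renal vesicle list, which includes Wnt4, has -1.68 and the skeletal muscle list 1.59.

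The genes whose values over the 4 arrays lay nearest to those of Six2 and of Eya4 were found by the Euclidean distance between log2(signal + 16) values, each centred on its own mean, over 13431 other genes. For Six2 they were Tmem260 (distance 0.0358), Xkr5 (0.0492) and Pgrmc2 (0.0507). For Eya4, the tested gene of the group with the smallest p at its brightest probe set, they were Tbx3 (0.0182), Cep120 (0.0473) and Adamts5 (0.0497). Tbx3, a T-box factor, read 1091 and 1191 on the mutant arrays, against 781 and 719 on the wild-type arrays. With 4 arrays such nearness describes these arrays only.

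**Figure D4:**
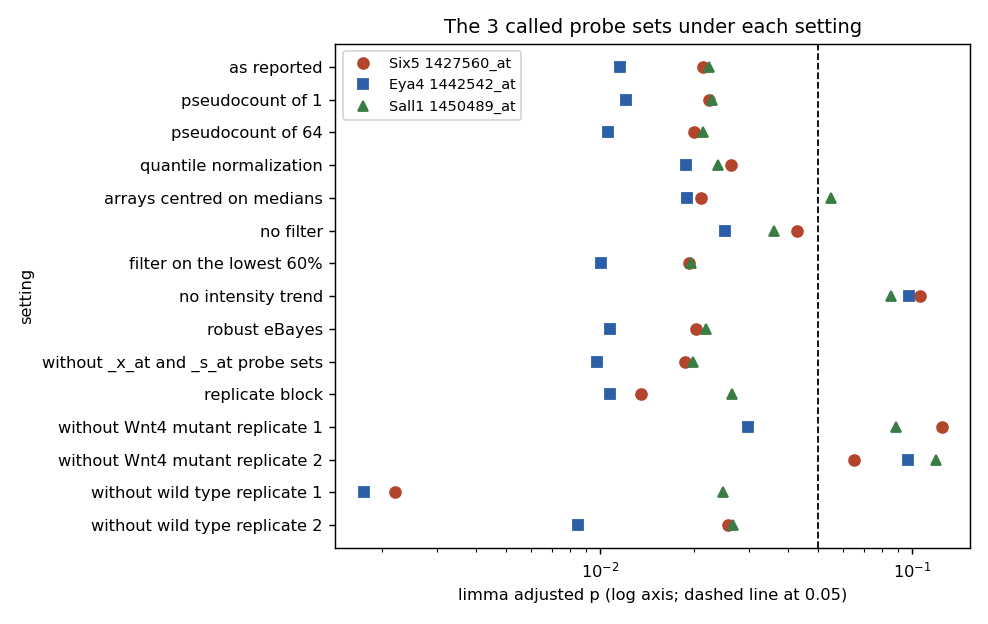
Limma adjusted p (log axis) of the 3 called probe sets, of Six5, Eya4 and Sall1, under the reported setting and 14 alternatives, with the threshold of 0.05 dashed. Points right of the line are calls lost: all 3 without the intensity trend and without mutant replicate 2, Six5 and Sall1 without mutant replicate 1, and Sall1 after centring each array on its median.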

How the data were processed

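The deposited values were signal intensities on a linear scale, 1 per probe set and array; GCOS is the tool listed in the submitters' processing notes, with its version, algorithm and target level not given in the sources used here. Signals were transformed to log2(signal + 16) with no further normalization. The 64 control probe sets and the lowest 40% by mean log2 value were left out. A linear model of genotype was fitted to the other 27022 with limma 3.58.1 in R 4.3.3 (lmFit, eBayes with an intensity trend, two-sided), with Benjamini-Hochberg adjustment over all of them. An exact test of 2 arrays against 2 cannot go below a two-sided p of 0.333. The number of arrays limits the precision.

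Symbols came from the platform annotation, updated by identifier through RefSeq (GRCm38.p6); 34958 probe sets had 1 gene, 932 had several and 9211 are unnamed here. In lists each gene was represented by its brightest tested probe set; partner genes were named by the smallest p, at most 4 a list. Members and lists were chosen with earlier results of these data known. Same-numbered arrays deviated from their group means with a correlation of -0.0171, and the labels do not pair them. Filters were recomputed in each alternative; alternatives are described in the closing section.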

Additional observations from a re-analysis of the deposited data

How the results depend on the processing

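The counts of 1 lower and 2 higher probe sets rest on few arrays. When 1 array was left out, the lower count ran from 0 to 2, the higher count from 0 to 4 and the count over all probe sets from 1572 to 4008, against 2920 with all arrays. In limma without the intensity trend, 0 of the 15 passed in either direction (2 lower and 3 higher at an unadjusted p under 0.05) and 858 probe sets passed in all. After centring each array on its median the lower count was 0 (3 at an unadjusted p under 0.05). With the replicate number as a block it was 2, since Sall1 at 1437983_at then passed (limma adjusted p = 0.0370); the numbers are not known to pair the arrays. The sign of 5 uncalled values was not settled. The Six4 difference at 1439753_x_at was 0.003 with a pseudocount of 1, 0.0072 with quantile normalization, 0.0132 after median centring and -0.47 to 0.46 when 1 array was left out. In such fits it ran from -0.35 to 0.37 at Six4 1456862_at, from -0.35 to 0.0211 at Six2, from -0.20 to 0.0401 at Eya1 1421727_at and from -0.17 to 2.05 at Eya4 1456647_a_at. The cause was not tested. Other pseudocounts, quantile normalization, other filters, the robust fit and leaving out the _x_at and _s_at probe sets kept the 3 calls. Of the 9 called partner genes, Itga8, Crym, Dach1, Tle2 and Mbd2 did not pass with no filter (limma adjusted p = 0.0519 to 0.0872), Itga8 and Mbd2 after median centring (0.118 and 0.198), Tle2 and Mbd2 with the replicate block (0.0539 and 0.0520) and Crym with the robust fit (0.0532). The settings tried for Eya2 with no filter and for partner genes were chosen after the data were seen. In dim probe sets such as those of Sall4, the low signal over background limits what can be told.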
